A study of Mus musculus with 2 samples.

Results

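The genes of glycolysis and of the response to low oxygen were compared between mouse ovaries cultured with agonists and with antagonists of the tachykinin receptors (TKRs). The 37 genes were chosen by name, with earlier results of these data known. They comprise 23 glycolytic genes, from the glucose transporters to the lactate exporter, and 14 other targets of the hypoxia-inducible factor (HIF). Of these, 36 were well above background, all of them on both arrays, among 16278 such genes of the 20654 named genes on the array. Mxi1, a MYC antagonist, was the exception. Its probe matched by RefSeq accession gave 10.4 signal units with the agonists and 6.01 with the antagonists and was well above background on neither array.

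The ovaries came from mice aged 2 weeks and were kept for 3 days in organ culture, each ovary as symmetrical pieces. The authors describe the antagonist ovaries as given all the TKR antagonists. Their array methods join the ligands by "or" and do not say plainly that the agonists were given together. As the methods are read here, the ligands of a group were given together. If they were not, the ratios below compare other treatments. The agonist group received the TACR1 agonist [Sar9, Met(O2)11]-SP, the TACR2 agonist GR-64349 and a succinylated substance P fragment analog acting on TACR3, and the antagonist group received L-703,606 against TACR1, GR-94800 against TACR2 and SB218795 against TACR3, each ligand at 1 μM. The ovary pieces of both groups spent the same time in culture, their strain is not stated in the sources used here for this experiment, and an ovary without ligand was not analysed here. Each group has 1 single-colour array, and the number of ovaries behind each RNA is not given in the sources used here, so the spread between ovaries is unknown, no test was made and every value below describes this pair of arrays.

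Glycolysis splits glucose into pyruvate in the cytosol and yields ATP without oxygen. In the ovary, granulosa cells are known to break down glucose and to pass pyruvate to the oocyte, which uses glucose poorly by itself. HIF consists of an oxygen-labile alpha subunit and the stable partner ARNT. When oxygen is scarce, prolyl hydroxylases no longer mark the alpha subunit for destruction through VHL, and HIF binds the core sequence ACGTG or GCGTG at its targets, which include most glycolytic enzymes.

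The HIF core letters were searched in the 250 bases before each annotated start, on both strands, in the RefSeq promoter sequences of build GRCm38.p6. Of the 37 genes, 34 matched an entry, and Slc2a3, Bnip3l and Ndrg1 did not. ACGTG stood in 22 of 51 windows of these genes (43.1%), in 19.8% of the 16181 windows of measured genes and in 16.6% of all 32851 windows. GCGTG stood in 51.0%, 39.9% and 28.2% of the same windows. ACGTG also lies within CACGTG, the E-box of MYC and other factors, which was found in 7.84% of the windows of these genes, in 7.74% of those of measured genes and in 6.02% of all. By gene, ACGTG was found in 10 of 22 glycolytic genes and in 8 of 12 other HIF targets, against 22.9% of measured genes and 18.5% of all genes with a window. The windows below belong to the 3 genes with this motif whose log2 ratio after 75th percentile scaling was farthest from 0, an order that depends on this scaling for Pfkfb3, and capitals mark ACGTG or its reverse complement CACGT. The Egln3 window is chr12:54203875-54204124 on the minus strand, and that of Car9 is chr4:43506776-43507025 on the plus strand. Pfkfb3 has an upstream start with the window chr2:11553930-11554179 and a downstream start with the window chr2:11502091-11502340, both on the minus strand.
Egln3: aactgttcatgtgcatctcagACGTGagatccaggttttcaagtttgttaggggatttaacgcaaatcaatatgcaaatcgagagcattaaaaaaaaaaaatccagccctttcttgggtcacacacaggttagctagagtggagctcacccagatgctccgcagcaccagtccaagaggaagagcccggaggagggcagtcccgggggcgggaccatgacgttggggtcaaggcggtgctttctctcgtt
Car9: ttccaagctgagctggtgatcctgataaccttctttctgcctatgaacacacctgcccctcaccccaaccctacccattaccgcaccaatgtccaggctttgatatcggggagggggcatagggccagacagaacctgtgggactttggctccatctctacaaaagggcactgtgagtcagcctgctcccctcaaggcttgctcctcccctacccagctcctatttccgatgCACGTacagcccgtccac
Pfkfb3, upstream start: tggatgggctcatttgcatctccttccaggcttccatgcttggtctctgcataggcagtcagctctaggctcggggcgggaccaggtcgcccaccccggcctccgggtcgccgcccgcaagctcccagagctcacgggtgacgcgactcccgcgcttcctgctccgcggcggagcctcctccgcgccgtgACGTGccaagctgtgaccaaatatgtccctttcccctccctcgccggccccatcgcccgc
Pfkfb3, downstream start: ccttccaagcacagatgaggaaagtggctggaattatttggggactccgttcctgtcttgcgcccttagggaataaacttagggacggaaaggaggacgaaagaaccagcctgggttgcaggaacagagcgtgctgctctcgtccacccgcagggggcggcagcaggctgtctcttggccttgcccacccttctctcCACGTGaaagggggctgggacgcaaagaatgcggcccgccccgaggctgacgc
The motif begins 229 bases before the start of Egln3, 18 bases before that of Car9 and 60 bases before the upstream start of Pfkfb3. In the downstream Pfkfb3 window the capitals form a CACGTG, which reads as ACGTG on both strands. Egln3 and Car9 gave higher signals with the agonists and Pfkfb3 did not. The 17 measured genes with ACGTG had a median log2 ratio of 0.07, and the 16 measured genes with a window but no ACGTG one of 0.06. Most of the latter, 12 of 16, hold the other core GCGTG, so this split does not separate genes with a HIF core from genes without one. A match of letters is not a site bound by HIF.

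Signals are the spot intensities of the authors' image analysis software in its own units. For the log2 ratio, agonists over antagonists, each array was divided by its 75th percentile, at 672 (agonists) and 569 (antagonists) signal units, so that equal signals give a ratio below 0. Levels of different genes cannot be ranked from these signals, because each probe has its own brightness. The software's own error on a log2 ratio was about 0.20 for most of these genes. Among 285 probes printed 10 times, the median SD of the log2 ratio between spots was 0.07. The median log2 ratio of all 16278 measured genes was -0.08, with an SD across genes of 0.62 and a 5th and a 95th percentile of -0.58 and 1.15. Every log2 ratio is 0.24 higher if the arrays are not scaled and 0.28 higher if they are scaled on spike-in controls. The sign of small negative ratios therefore depends on the scaling, while positions relative to the median of all genes do not change under these scalings.

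**Figure D1:**
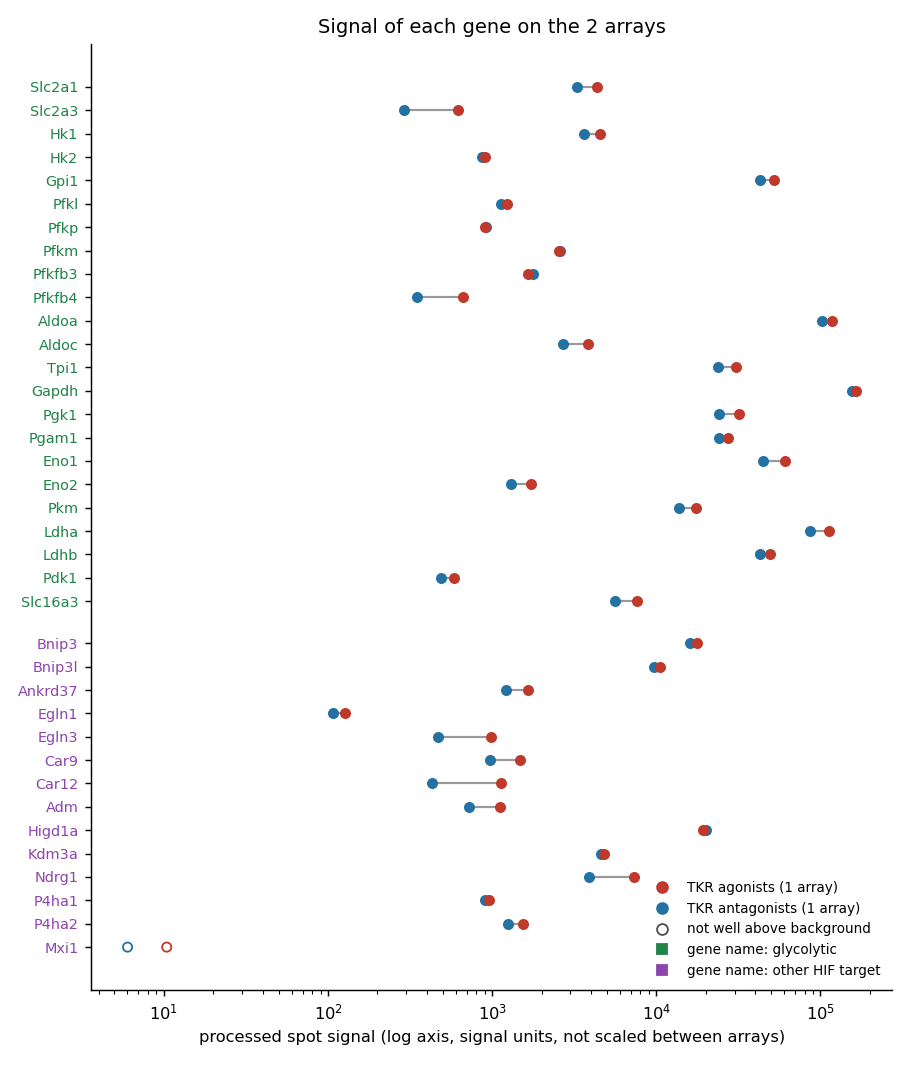
Processed signal of each gene, in signal units on a log axis, with the agonists (red) and the antagonists (blue), 1 array each, for the brightest probe of a gene. The lines are longest for Car12, Slc2a3, Egln3, Pfkfb4 and Ndrg1, and Mxi1 (open circles) is the only gene not well above background.

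Most of these genes differed little between the arrays. Of the 36 measured genes, 5 exceeded 1.5-fold in favour of the agonists (13.9%), against 10.1% of all measured genes. In the opposite direction 0 did, against 4.86%. At 2-fold, 1 gene, Car12, was higher (2.78%, against 4.51% of all genes). The log2 ratio was above 0 for 22 of 36 genes (61.1%), against 40.3% of all genes, and above the median of all genes for 25 (69.4%). For 24 of the 36 the log2 ratio was smaller than the software's error. The median was 0.07 for the 23 glycolytic genes and 0.07 for the 13 other HIF targets, in both 0.15 above the median of all genes, and the glycolytic and HIF medians differed by 0.002. The other HIF targets were spread more widely, from -0.30 to 1.16 with an SD across genes of 0.45, than the glycolytic genes, which ran from -0.35 to 0.87 with an SD of 0.28.

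Of the facilitative glucose transporters, which bring glucose into the cell, Slc2a3 stood apart. Slc2a3, the high-affinity transporter GLUT3, gave 623 signal units with the agonists and 289 with the antagonists, which is a log2 ratio of 0.87 or 1.82-fold. This was the highest ratio of the 23 glycolytic genes and lay at percentile 92.4 of all measured genes. Slc2a1, the widely expressed transporter GLUT1, gave 4347 and 3271 (log2 ratio 0.17), within the software's error. Slc2a3 was read by 1 spot of 1 probe.

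The enzymes that trap and rearrange the sugar gave ratios near 0. Hk1, the hexokinase found in most tissues, gave 4517 signal units with the agonists and 3644 with the antagonists, but its 2 probes disagreed in sign, at 0.07 and -0.18. Hk2, the hexokinase induced by insulin and hypoxia, gave 902 and 865 (log2 ratio -0.18). The 3 probes of Gpi1, glucose phosphate isomerase, lay between 0.04 and 0.08.

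Phosphofructokinase, the committed step of glycolysis, was the one step at which each gene measured lay below the median of all genes. Relative to that median Pfkl lay at -0.04, Pfkp at -0.19 and Pfkm at -0.17, each within the software's error of about 0.20. After normexp background correction Pfkl lay 0.06 above the median of all genes. Pfkl, the liver-type subunit, gave 1225 signal units with the agonists and 1125 with the antagonists (log2 ratio -0.12). Pfkp, the platelet-type subunit, gave 899 and 917 (log2 ratio -0.27), with its other probe at -0.29. Pfkm, the muscle-type subunit, was printed 10 times on the array. Its agonist spots ran from 2448 over a median of 2560 to 2669 and its antagonist spots from 2395 over 2590 to 2696. The signals of the spots overlapped, and after scaling the log2 ratio was -0.25 ± 0.06 (SD over 10 spots), from -0.36 to -0.18. The Pfkm spots lie on the same pair of arrays and hold the same RNA, so this SD is an error of reading.

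The bifunctional enzymes that set the level of fructose 2,6-bisphosphate, the activator of phosphofructokinase, went in opposite directions. Pfkfb4 gave 662 signal units with the agonists and 349 with the antagonists, that is 0.68 on the log2 scale or 1.61-fold. Another Pfkfb4 probe was well above background on neither array, so the value rests on 1 spot. Pfkfb3 gave 1643 and 1775, a log2 ratio of -0.35, with its other probe at -0.36. Pfkfb3 was the lowest of all 36 measured genes and Pfkfb4 the second highest of the glycolytic genes, at percentiles 15.8 and 89.6 of all measured genes.

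The enzymes from aldolase to pyruvate kinase stayed within 1.5-fold. Aldoa, the muscle-type aldolase, gave a log2 ratio of -0.02. Aldoc, the brain-type aldolase, gave 3845 signal units with the agonists and 2682 with the antagonists, with a log2 ratio of 0.28, the third of the glycolytic genes from the top. For the 7 genes from triose phosphate to pyruvate (Tpi1, Gapdh, Pgk1, Pgam1, Eno1, Eno2 and Pkm) the log2 ratios ran from -0.17 to 0.19, and 6 lay above the median of all genes. Gapdh, widely used as a reference gene, was the lowest of them, with 164642 and 156584 signal units and 7 probes between -0.21 and -0.02. Eno1, the common enolase, was the highest of them, with 60754 and 44929. Aldoa, Tpi1, Gapdh, Pgam1, Eno1, Pkm and Ldha have near-identical processed copies elsewhere in the genome that a probe may also bind, so their values are uncertain in that respect.

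The genes that handle pyruvate and lactate all lay above the median of all genes, by small amounts. Ldha, which makes lactate from pyruvate, gave 112811 signal units with the agonists and 86653 with the antagonists (log2 ratio 0.14), with 3 probes between 0.14 and 0.24. Slc16a3, the lactate exporter MCT4, gave 7609 and 5606 (log2 ratio 0.20), and its other probe 0.19. Ldhb, the subunit that favours pyruvate, gave a log2 ratio of -0.03, and Pdk1, the kinase that closes the path from pyruvate into mitochondria, one of 0.02.

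**Figure D2:**
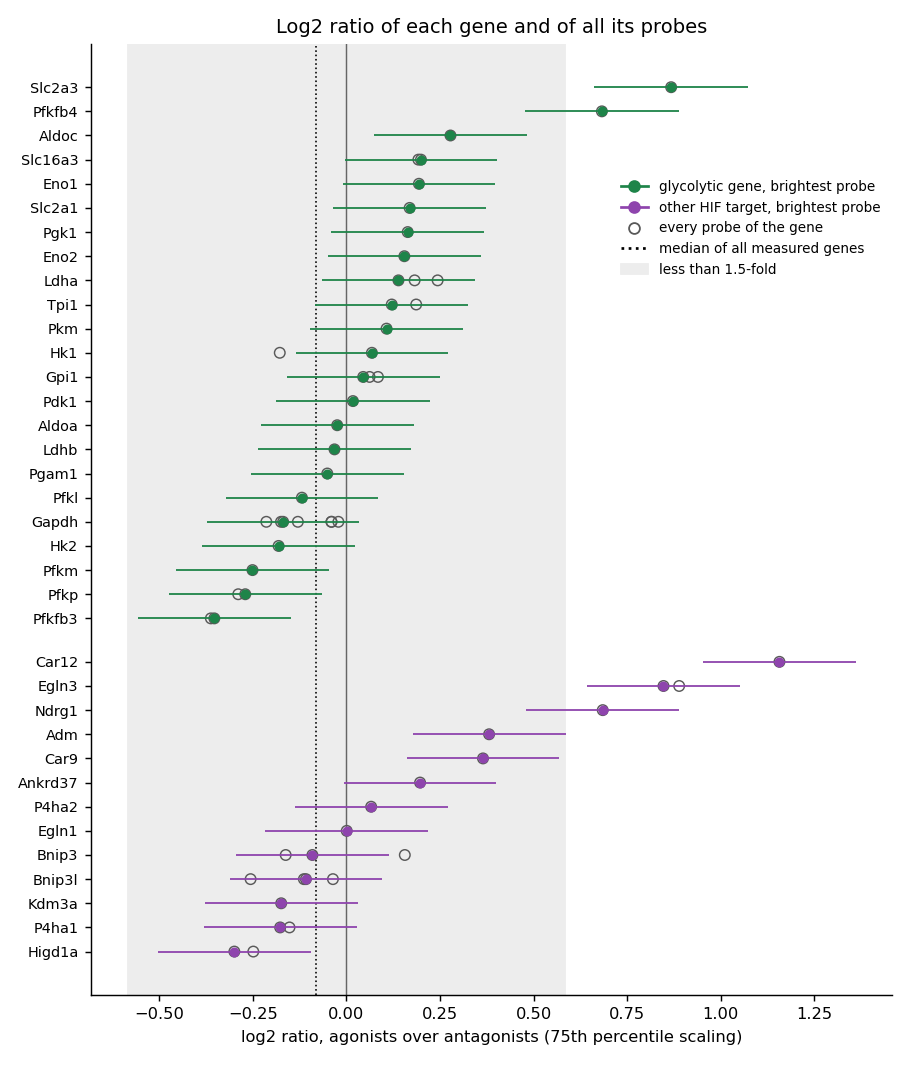
Log2 ratio, agonists over antagonists, of each measured gene in its brightest probe (filled, bars are the software's error of the ratio) and in every probe well above background (open), sorted within the glycolytic genes (green) and the other HIF targets (purple). The 5 filled points right of the grey band are Slc2a3, Pfkfb4, Car12, Egln3 and Ndrg1, and no point lies left of it.

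Of the other HIF targets, the oxygen sensors diverged. Egln3, the prolyl hydroxylase PHD3 that HIF itself induces, gave 990 signal units with the agonists and 465 with the antagonists, for a log2 ratio of 0.85 or 1.80-fold. Another Egln3 probe gave 378 and 173, a log2 ratio of 0.89, so that Egln3 was the one gene past 1.5-fold that was read by more than 1 probe. Egln1, the prolyl hydroxylase PHD2 that limits HIF when oxygen is plentiful, gave 127 and 108, a log2 ratio near 0.

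The membrane carbonic anhydrases, which turn carbon dioxide into bicarbonate and protons outside the cell, both gave higher signals with the agonists. Car12 gave 1126 signal units with the agonists and 427 with the antagonists, and thus a log2 ratio of 1.16 or 2.23-fold, the largest of the 36 genes and at percentile 95.1 of all genes. Car9, one of the most hypoxia-dependent HIF targets, gave 1467 and 964, a log2 ratio of 0.36, which is less than 1.5-fold.

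Ndrg1, a stress-responsive gene induced in hypoxia, gave 7343 signal units with the agonists and 3863 with the antagonists, equal to a log2 ratio of 0.68 or 1.61-fold. Adm, which encodes the vasodilator adrenomedullin, gave 1120 and 727 (log2 ratio 0.38). Ankrd37, a small ankyrin repeat gene, gave 1650 and 1218 (log2 ratio 0.20). Only Ndrg1 of these was past 1.5-fold.

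The lowest HIF targets acted in mitochondria, on chromatin or on collagen. Higd1a, which protects the respiratory chain in hypoxia, gave 19328 signal units with the agonists and 20120 with the antagonists (log2 ratio -0.30), and its other probe gave -0.25. P4ha1, a catalytic subunit of the collagen prolyl hydroxylase, gave 952 and 910 (log2 ratio -0.18), while its relative P4ha2 gave 0.07. Kdm3a, a histone H3 lysine demethylase, gave 4824 and 4604 (log2 ratio -0.17). The mitophagy receptors Bnip3 and Bnip3l gave -0.09 and -0.11. Their probes were spread on both sides of the median of all genes, from -0.16 to 0.16 in Bnip3 and from -0.26 to -0.04 in Bnip3l.

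Over the 13 genes read by more than 1 probe well above background, the SD of the log2 ratio between probes had a median of 0.04 and was at most 0.17, in Hk1. In 11 of these 13 genes all probes had the same sign, the exceptions being Hk1 and Bnip3. The log2 ratios of the 5 genes past 1.5-fold were between 3.33 (Pfkfb4) and 5.65 (Car12) times the software's error, which does not include the spread between ovaries.

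**Figure D3:**
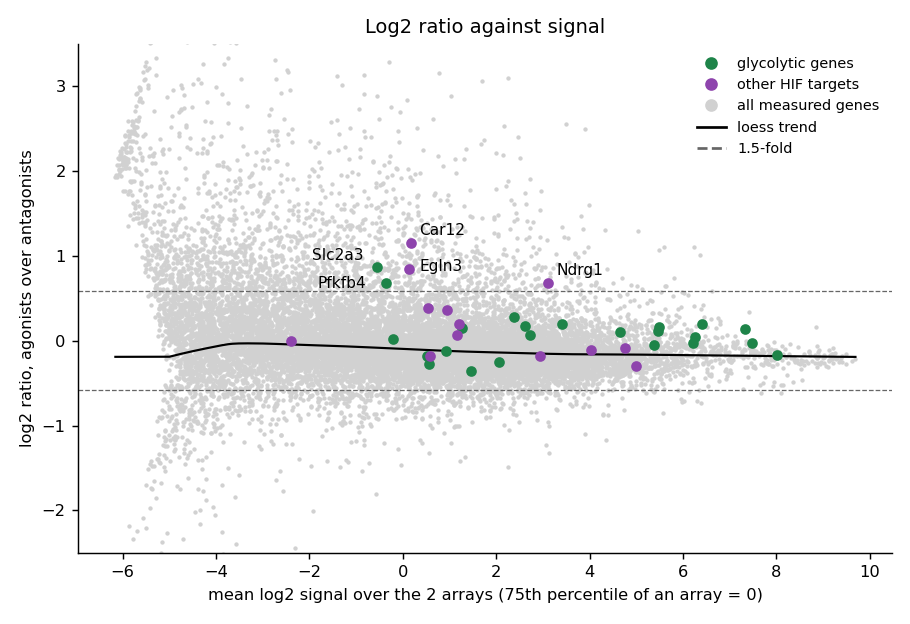
Log2 ratio, agonists over antagonists, against the mean log2 signal of all 16278 measured genes (grey, 67 of them outside the axis), the glycolytic genes (green) and the other HIF targets (purple), with a loess trend (black) and the 1.5-fold lines (dashed). The 5 named genes lie above the upper line, and many of the glycolytic enzymes lie at the bright end, where the trend is below 0.

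Brightness moved with the ratio. Among the 1628 genes with the highest signal, the median log2 ratio was -0.17 and 20.8% of genes were above 0. Of the 36 genes, 13 were among these 1628, 6 of them above 0, with a median of -0.02. After a loess correction for signal, which removed a shift of -0.18 to -0.04 from these genes, 28 of the 36 were above 0 beside 54.0% of all genes, and the glycolytic median was 0.22 beside 0.03 for all genes.

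The machinery that regulates HIF was next examined. Among its 16 genes, with a median of -0.03, 5 had a log2 ratio above 0 (31.25%, against 40.3% of all measured genes). 3 exceeded 1.5-fold upward (18.75%, against 10.1%) and 0 downward (against 4.86%). Hif1a, the main oxygen-labile subunit, gave a log2 ratio of 0.15 and its partner Arnt one of -0.02, with the other Arnt probe at 0.27. Epas1, the alpha subunit HIF-2 alpha that is abundant in endothelium, gave 19274 signal units with the agonists and 12509 with the antagonists (log2 ratio 0.38), but its 3 probes ranged from -0.08 to 0.43. Vhl, the recognition subunit of the ligase that destroys HIF, gave 3017 and 3487 (log2 ratio -0.45). Rbx1, the RING subunit of the same ligase, was the lowest of the list at -0.45, with its other probes at -0.42 and -0.11. Hif3a, an alpha subunit whose short forms inhibit HIF, was the highest, with 563 and 158 signal units (log2 ratio 1.59), and another probe gave 0.89. The other genes of this list past 1.5-fold were Arnt2, a relative of Arnt, with 100 and 42.1 signal units (log2 ratio 1.01), and Cited4, which binds the coactivators that HIF uses (log2 ratio 0.79).

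A list of 30 further HIF targets, all of them measured, had a median of 0.11, with 19 genes above 0 (63.3%, against 40.3% of all measured genes). In this list 6 genes exceeded 1.5-fold upward (20%, against 10.1%), and 2 downward (against 4.86% of all measured genes). Vegfa, the angiogenic factor, gave a log2 ratio of 0.22. Ero1a, the oxidase of disulfide formation in the endoplasmic reticulum, was the lowest of those on both arrays, with 176 signal units with the agonists and 396 with the antagonists (log2 ratio -1.41). The other gene past 1.5-fold downward was Epo, erythropoietin, well above background with the antagonists only, so that its agonist signal was at least 1.72-fold lower. Its antagonist signal of 26.4 lay near the lowest signal well above background on that array, 19.9. Lox, which cross-links collagen, was well above background with the agonists only and at least 3.97-fold higher.

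Neighbouring pathways of glucose use had medians near or below that of the 23 glycolytic genes. The other glycolytic isoforms, of which 15 of 20 were measured, had a median of 0.04, from Tigar, a fructose bisphosphatase that opposes glycolysis (log2 ratio -0.77), to Slc2a10, a further glucose transporter (log2 ratio 0.83). Of 12 genes of pyruvate entry into mitochondria 4 were above 0 (33.3%, against 40.3% of all measured genes). Their median was -0.11, from Mpc1, a subunit of the pyruvate carrier (log2 ratio -0.35), to Pdk4, a kinase that shuts pyruvate dehydrogenase. Pdk4 gave 942 signal units with the agonists and 349 with the antagonists (log2 ratio 1.19). Of 8 pentose phosphate genes 2 were above 0 (25%, against 40.3% of all measured genes). Their median was -0.13, from Taldo1, transaldolase (log2 ratio -0.44), to H6pd, the glucose dehydrogenase of the endoplasmic reticulum (log2 ratio 0.44).

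The 24 subunits of the respiratory chain, which consumes oxygen to make ATP, lay lower, with a median of -0.28, from Atp5a1 (log2 ratio -0.58) to Cox4i1 (log2 ratio -0.07). Of these 0 were above 0, against 40.3% of all measured genes (11 with spike-in scaling, against 76.3%). At 1.5-fold 0 were higher, against 10.1%, and 0 were lower, against 4.86%. Above the median of all genes were 2. After the loess correction for signal their median was -0.12, beside 0.03 for all genes. Then 3 subunits were above 0, beside 54.0% of all genes. The 18 targets of ATF4 and CHOP, which answer to shortage of amino acids and stress of the endoplasmic reticulum, had a median of -0.64. Of the 18, 10 were at least 1.5-fold lower, against 4.86% of all measured genes. They ran from Trib3, a pseudokinase induced by ATF4 (log2 ratio -1.49), to Cebpb, a transcription factor (log2 ratio 0.14). Because no replicate exists, the gaps between these lists were not tested.

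**Figure D4:**
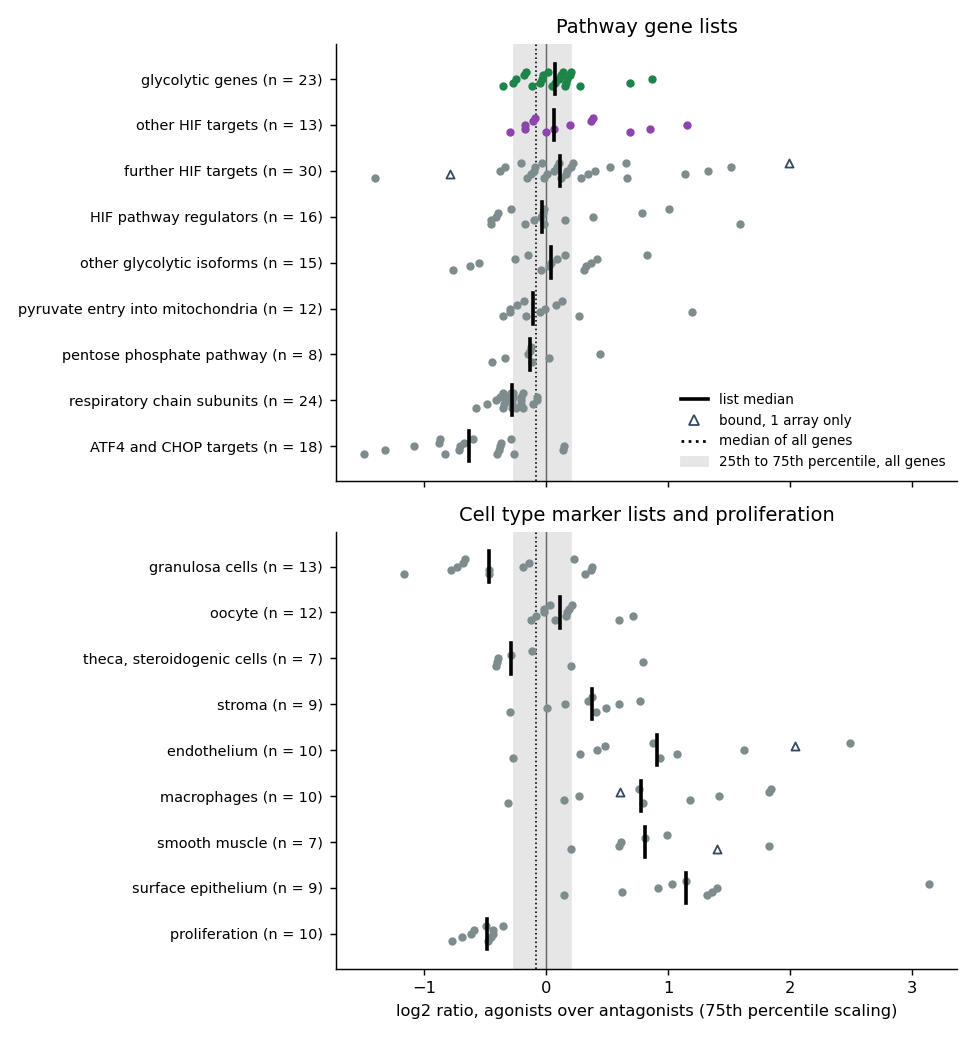
Log2 ratio, agonists over antagonists, of each measured gene (points) in the pathway lists and in the marker lists, with the list median (black bar), the median of all genes (dotted line) and their 25th to 75th percentile (-0.26 to 0.20, grey), where triangles are bounds of genes well above background on 1 array. The glycolytic genes and other HIF targets centre near 0.07, the respiratory chain subunits at -0.28, and the endothelium, smooth muscle and surface epithelium markers at 0.90, 0.81 and 1.15.

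The markers of the cell types in the ovary also differed between the arrays. In bulk RNA fewer cells of a type and less RNA per cell cannot be told apart. All 13 granulosa cell markers and all 12 oocyte markers were measured, as the labelled tissue requires. The granulosa cell markers had a median log2 ratio of -0.47. Of the 13 granulosa cell markers, 4 were above 0 (40.3% of all measured genes were) and 5 at least 1.5-fold lower (4.86% were). Their summed signals were 147271 with the agonists and 146449 with the antagonists. Summed signals, here and for the lists below, are not scaled between the arrays. After scaling, the log2 ratio of the granulosa sums was -0.23. The oocyte markers had a median of 0.11, and the 10 proliferation genes one of -0.49 with 0 above 0 (against 40.3% of all measured genes).

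Markers of vessels, muscle, macrophages and the ovarian surface were higher with the agonists. Of 10 endothelial markers 9 were above 0 (against 40.3% of all measured genes), with summed signals of 47842 and 33793. All 7 smooth muscle markers were above 0 (26474 and 13729), as were all 9 measured surface epithelium markers (25566 and 9807). Of the latter 8 were at least 1.5-fold higher, against 10.1% of all measured genes. Of 10 measured macrophage markers 9 were above 0 (16394 and 12545). At least 1.5-fold higher were also 6 endothelial, 6 smooth muscle and 7 macrophage markers. In their brightest probes, Kdr (-0.27) was the endothelial and Itgam (-0.31) the macrophage marker below 0. After scaling, the log2 ratio of the sums was 0.26 for endothelium, 0.71 for smooth muscle, 1.14 for surface epithelium and 0.14 for macrophages. The 9 stromal markers had a median of 0.38, and the 7 measured theca and steroidogenic markers one of -0.29. Blood and fat markers were measured in part, with 3 of 7 erythrocyte markers (summed signals 142 and 111), 4 of 7 neutrophil markers (4835 and 3880) and 5 of 7 adipocyte markers (883 and 175) well above background on at least 1 array. Most of the adipocyte sum came from Fabp4 (739 and 44.2). Of the 5 adipocyte markers 3 were above 0 (against 40.3% of all measured genes) and 2, Retn and Cfd, below. The adipocyte list median with bounds was 0. Most of the neutrophil sum came from Elane (4613 and 3781, log2 ratio 0.05). After scaling, the log2 ratio of the sums was 0.12 for erythrocyte, 0.08 for neutrophil and 2.09 for adipocyte markers. Muc16 and Cd68 had no paired probe, and the remaining markers of endothelium, smooth muscle, surface epithelium, macrophages and stroma were all well above background on at least 1 array. The medians of the endothelium, smooth muscle, surface epithelium, macrophage and stroma lists lay in the same direction as Slc2a3, Pfkfb4, Egln3, Car12 and Ndrg1. That of the theca and steroidogenic list did not. The part of a different mixture of cells in the values of these 5 genes was not tested.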

How the data were processed

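Total RNA of the cultured ovary pieces was labelled with Cy3 and hybridised to Agilent whole-genome mouse arrays by a service company, 1 array per group, both on the same slide. The authors deposited spot intensities on a linear scale from Agilent Feature Extraction 10.10.1.1, background-corrected and not scaled between arrays, and a summary table that equals these times 1 constant per array (1.99 and 2.19). Leaving out controls, 59305 spots remained, of which the software marked 65.4% (agonists) and 61.6% (antagonists) as well above background and 0 as saturated. 8 spike-in probes gave log2 ratios from -0.08 to 0.11. The number of arrays limits the precision.

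From these files, log2 of the processed signal minus the array's 75th percentile was taken, outlier spots were removed and spots averaged per probe. A probe counted as well above background if more than 50% of its spots did, and a gene was read by its brightest such probe. For a gene on 1 array only, a bound was used. All 37 genes were matched through RefSeq accessions (GRCm38.p6, for names and promoters only, since the array was designed on another build). A probe was named only if its accession belonged to 1 gene. This held for 27224 of 55674 probes, and the other probes were not read. Genes were named in full where at least 1.5-fold different or among the 3 highest or lowest of their group, and in other lists as the highest and the lowest, with Hif1a, Epas1, Arnt, Vhl and Vegfa. The highest of the further HIF targets is not reported here. Values of other genes, such as Egln1, Bnip3, Arnt2, Cited4, Epo and Lox, were added for their roles after they were seen. The search of only the 250 upstream bases was chosen after the data were seen. The genes and lists were chosen with earlier results of these data known. The calculation was tested on simulated data. Python 3.11.15, numpy 2.4.6, pandas 2.3.3, statsmodels 0.14.6, R 4.3.3 and limma 3.58.1 were used.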

Additional observations from a re-analysis of the deposited data

How the results depend on the processing

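No paired analysis was possible because there is a single array in each group, without any test. Over 14 alternatives, at least 1.5-fold higher with the agonists were 4 genes (normexp background correction, without Pfkfb4) to 7 (no scaling or spike-in scaling, which add Car9 and Adm), and 0 were lower. At 2-fold the count was 1, Car12, with the scaling used for the results above, and it varied with the processing. Without scaling, Slc2a3 (log2 ratio 1.11), Egln3 (1.09) and Car12 (1.40) were past 2-fold. With spike-in scaling the same genes were, at 1.14, 1.12 and 1.43. With normexp Car12 gave 0.985, which is below 2-fold. Slc2a3, Egln3, Car12 and Ndrg1 were past 1.5-fold in all of the alternatives. The sign of small ratios depends on the scaling. The median of all genes was 0.16 without scaling and 0.19 with spike-in scaling, where 34 of 36 genes were above 0 beside 76.3% of all genes; over the alternatives 19 to 34 were. The glycolytic and HIF medians were 0.31 and 0.31 without scaling, 0.34 and 0.34 with spike-in scaling, 0.17 and 0.17 from the authors' table, 0.16 and 0.15 with scaling on probes well above background on both arrays, and 0.22 and 0.19 with loess. The glycolytic median was 0.17 with quantile normalization and 0.15 with normexp, which put it 0.11 above the HIF median. With the probe of lowest signal, the HIF median was 0.16 and the glycolytic median differed from it by -0.072. Relative to all genes, the glycolytic median was 0.14 to 0.25 and the HIF median 0.14 to 0.24 higher. The respiratory chain median stayed below 0, from -0.33 to -0.003, with 0 to 11 subunits above 0, beside 34.6% to 76.3% of all genes. One pair of arrays cannot show how far ovaries of the same group differ.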
